A study of Homo sapiens with 4 samples.

Results

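The genes described here encode LRRC55 and the other subunits of the BK channel, the large-conductance potassium channel opened by calcium and voltage. They were taken as all probe sets whose platform gene symbol was KCNMA1, KCNMB1, KCNMB2, KCNMB3, KCNMB4, LRRC26, LRRC38, LRRC52 or LRRC55. That gave 15 of the 54613 probe sets, for 8 of the 9 genes, and LRRC26 had no value here. The family was selected on the large knockout-minus-control difference of LRRC55, so that difference is given as a description without a test. The other members were added because they belong to the same channel. NUGC3, the cells studied, is an established line from a human gastric cancer, and each of the 4 arrays held its total RNA. Of these, 2 were labelled control (PRMT6 wild type) and 2 PRMT6 knockout. For the knockout, cells were infected with lentivirus made from the lentiCRISPR v2 vector, which carries Cas9 and here a guide to PRMT6, were treated with puromycin and were cloned by limiting dilution. The sources used here do not say if the knockout arrays hold 1 clone or several, nor what vector or drug the control cells received. The arrays are numbered replicates 1 and 2 of each group, with nothing to say that they came from separate cultures, so the errors measure only the spread between these arrays, which may be technical.

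The BK channel pore is a tetramer of the KCNMA1 product, which carries the voltage sensor and the calcium-sensing domain. Opening lets potassium leave the cell and brings the membrane back towards rest, which in smooth muscle limits contraction and in neurons shapes firing. The beta subunits KCNMB1 to KCNMB4 change the calcium sensitivity and the gating kinetics of the pore. The gamma subunits LRRC26, LRRC38, LRRC52 and LRRC55 are single-pass membrane proteins with extracellular leucine-rich repeats. They shift the voltage at which the channel opens and do not conduct ions themselves. LRRC26 is known from secretory epithelium, LRRC52 from testis and LRRC55 mainly from the nervous system. PRMT6 is an arginine methyltransferase whose histone mark, asymmetric dimethylation of arginine 2 of histone H3, is known to oppose methylation of lysine 4 at promoters.

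The promoter sequences are shown for LRRC55 and KCNMA1, the pore (the upstream of its 2 listed starts), so that the member with the large difference can be read beside the pore gene, and the guide is shown because it defines the knockout. Promoters are the 250 bases before the annotated start in RefSeq (GRCh38.p14), written 5′ to 3′ on the strand of the gene, with every CpG in capitals. The first lies at chr11:57181703-57181952 on the plus strand and overlaps the annotated gene LOC105369309. The second lies at chr10:77637809-77638058 on the minus strand, before the farther upstream of the 2 listed starts of KCNMA1. The guide is copied from the labels and was not placed on a genome.

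LRRC55 promoter: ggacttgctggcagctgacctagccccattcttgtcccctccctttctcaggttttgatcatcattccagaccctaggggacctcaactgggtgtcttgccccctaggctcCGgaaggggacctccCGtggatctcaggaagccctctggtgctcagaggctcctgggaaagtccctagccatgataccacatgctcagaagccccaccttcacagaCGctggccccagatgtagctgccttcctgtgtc

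KCNMA1 promoter: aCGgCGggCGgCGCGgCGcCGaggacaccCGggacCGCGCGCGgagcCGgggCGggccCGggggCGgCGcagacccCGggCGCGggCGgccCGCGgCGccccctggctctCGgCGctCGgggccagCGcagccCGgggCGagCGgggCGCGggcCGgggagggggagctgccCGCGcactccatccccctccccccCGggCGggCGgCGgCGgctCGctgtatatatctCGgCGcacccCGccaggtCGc

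PRMT6 guide: gacggtactggacgtgggcg

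Counted over the full window of 300 bases, which adds the first 50 transcribed bases, the LRRC55 promoter held 4 CpG dinucleotides and 58.3% G or C. The median of all 35116 windows in the table was 14 CpG and 58.7% G or C. LRRC55 lay at the 29.6th percentile for CpG. The 2 windows of KCNMA1 lay on either side of it: the upstream one, printed above, held 54 CpG and 85.7% G or C (99.6th percentile for CpG), and the downstream one held 1 CpG and 54.7% G or C (11th percentile). Windows were listed for 8 of the 9 members, 11 in all. The gamma subunit windows ranged from 1 CpG for LRRC52 to 24 for LRRC38 and 26 for LRRC26, so the family shared no CpG class. Short core-promoter words were searched on both strands, none of which contains another. They were TATAAA (the TATA box, in 11.5% of all windows), CCAAT (34.6%) and GGGCGG (the GC box, 45.0%). The window of LRRC55 held none of the 3. Of the 2 KCNMA1 windows, the upstream one held GGGCGG alone and the downstream one CCAAT alone. These counts describe the letters of the windows only.

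The deposited values are RMA expression on a log2 scale, where a difference of 1 is a 2-fold change in the summarised probe signal. Whether a level stood above background was judged on the same array against 166 probe sets of 138 genes that an epithelial line has little reason to express (olfactory, taste and vomeronasal receptors and hair keratin-associated proteins). Their 95th percentile lay between 5.07 and 5.24 on the 4 arrays and their median between 3.20 and 3.42. This placement is not a detection call, since probes differ in how well they bind. Of all probe sets, 40.4% lay above the 95th percentile on all 4 arrays. The targeted gene, PRMT6, read 7.66 on both control arrays and 6.87 and 6.91 on knockout replicates 1 and 2. Its limma adjusted p over all probe sets was 0.114, with a difference of -0.77 (SE 0.086, n = 2 arrays per group), and an edit need not remove the transcript. Control replicate 2 stood somewhat apart, with an upper quartile of 6.62 against 6.77 to 6.79 on the other arrays. All 8 epithelial markers, among them EPCAM, CDH1 and KRT19, lay above that 95th percentile on every array.

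LRRC55 was far higher on the knockout arrays. Its only probe set, 232856_at, read 3.76 and 4.41 on control replicates 1 and 2 and 7.41 on both knockout replicates. Both control values lay below the background 95th percentile, at the 34.3rd and 43.9th percentiles of all probe sets on their arrays. Both knockout values lay above it, at the 80.9th and 80.8th percentiles, and the groups did not overlap. The means were 4.09 ± 0.46 in control and 7.41 in knockout (SD, n = 2), a difference of 3.33 or 10.0-fold. Because neither control array stood above background, that fold rests on dim values. Measured against the background 95th percentile of the control arrays, a mean of 5.18, the knockout level of LRRC55 was 4.69-fold higher. That percentile comes from other probe sets, so 4.69 is not a lower bound on the fold of LRRC55. The fold depended on the control array used, with 8.02 without control replicate 1 and 12.5 without control replicate 2. Of 19775 genes, each represented by its brightest probe set, 5 had a rise at least this large, LRRC55 included. Falls were not counted. The gene lies on chromosome 11 (GRCh38.p14, chr11:57181953-57191717), and which part of its transcript the probe set reads was not determined here. In bulk RNA, a modest level in every cell and a high level in few cells cannot be told apart.

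The 2 knockout values of LRRC55 were identical to every deposited decimal, so their SD of 0 is not a measure of replicate error. Exact equality was not particular to LRRC55: 781 probe sets (1.43%) had equal values on the 2 knockout arrays, and 527 (0.965%) on the 2 control arrays. Pairs of a control and a knockout array had 435 to 695 equal values. Among the members, 228414_at of KCNMA1 was also equal on the knockout arrays, and 3 other probe sets were equal between a control and a knockout array. The cause was not tested. As a guide to the spread at this brightness, the 2 knockout arrays differed by a median of 0.07 and by 0.17 at the 90th percentile over the 2428 probe sets whose knockout mean lay within 0.25 of that of LRRC55.

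**Figure D1:**
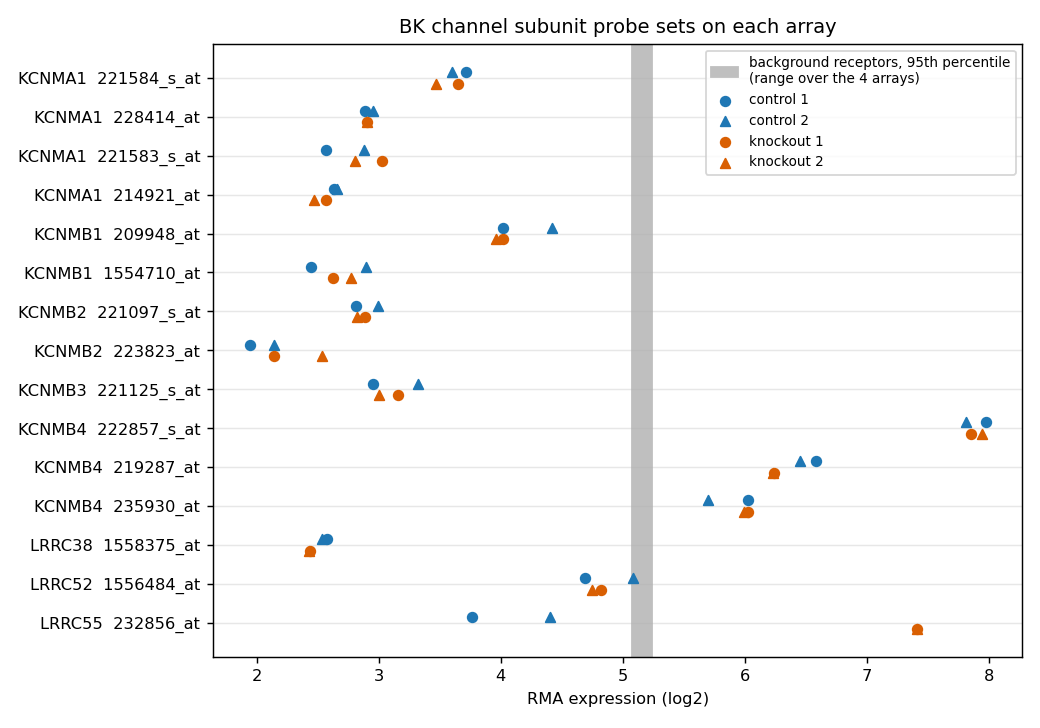
RMA expression (log2) of the 15 BK channel probe sets on the 2 control (blue) and 2 knockout (orange) arrays, with the range of the background 95th percentile, 5.07 to 5.24, in grey. LRRC55 crossed the grey band between control (3.76 and 4.41) and knockout (7.41 on both arrays, symbols on top of each other). The 3 probe sets of KCNMB4 lay above the band on every array. The other 11 lay below the 95th percentile of each array, although LRRC52 on control replicate 2 (5.09) fell inside the band.

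The remaining members gave no such difference. None of the 14 other probe sets was called (limma, adjusted p under 0.05 over all probe sets, lowest adjusted p = 0.534), where 0.148% of all probe sets were called. With eBayes set to trend and robust the count was 0 as well, where 883 of all 54613 probe sets were called. At an unadjusted p under 0.05 there was 1 of the 14, where 8.65% of all probe sets were. Their differences had a median of -0.06, with 5 positive and 9 negative, against a median of -0.0029 over all probe sets. The groups did not overlap in 3 of the 14, and in 38.7% of all probe sets.

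The pore transcript was not seen above background. KCNMA1 had 4 probe sets, all below the background 95th percentile on all 4 arrays. The brightest, 221584_s_at, read 3.71 and 3.61 in control and 3.65 and 3.47 in knockout, so the groups overlapped. Its difference was -0.10 (95% interval -0.39 to 0.19, adjusted p = 0.821, limma, n = 2 arrays per group). 221583_s_at read 2.57 and 2.88 in control and 3.02 and 2.81 in knockout, a difference of 0.19 (interval -0.20 to 0.59). 214921_at read 2.63 and 2.66 in control and 2.57 and 2.47 in knockout. 228414_at lay between 2.89 and 2.95 on all arrays. The upper interval ends of the 4 probe sets allowed a rise of at most 1.504-fold in the summarised signal, which for values this dim says little about the transcript.

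Among the beta subunits, KCNMB4 was the member measured above background throughout. KCNMB4 encodes the beta subunit best known from neurons, which slows the channel and makes it resistant to the toxin iberiotoxin. Its brightest probe set, 222857_s_at, read 7.97 and 7.81 in control and 7.85 and 7.94 in knockout, a difference of 0.0037 (interval -0.27 to 0.28); its sign turned after quantile (-0.04) and cyclic loess (-0.03) normalization. 219287_at read 6.58 and 6.45 in control and 6.24 on both knockout arrays, the only member probe set other than LRRC55 with an unadjusted p under 0.05. Its difference of -0.28 (interval -0.53 to -0.03) did not pass over all probe sets (limma adjusted p = 0.534, n = 2 arrays per group). 235930_at read 6.02 and 5.70 in control and 6.02 and 5.99 in knockout, a difference of 0.15 (interval -0.21 to 0.51). The 3 probe sets of KCNMB4 thus gave differences of both signs, and only 219287_at had groups that did not overlap.

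KCNMB1, KCNMB2 and KCNMB3 stayed below the background 95th percentile on every array. KCNMB1 encodes the beta subunit of smooth muscle; its brighter probe set 209948_at read 4.02 and 4.42 in control and 4.02 and 3.96 in knockout, and its dimmer one, 1554710_at, lay between 2.44 and 2.90. KCNMB2, whose product inactivates the channel through its N-terminal end, gave -0.05 on 221097_s_at and 0.30 on 223823_at. The latter read 1.95 and 2.14 in control and 2.14 and 2.54 in knockout and had the widest upper interval of the members, reaching 0.74. KCNMB3 read 2.95 and 3.33 in control and 3.15 and 3.001 in knockout on its only probe set, 221125_s_at. In none of these probe sets were the groups apart.

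Of the 3 measured gamma subunits, LRRC55 was the one above background, on the knockout arrays only. LRRC38 read 2.58 and 2.54 in control and 2.44 and 2.43 in knockout on 1558375_at. Those groups did not overlap, but the difference was -0.12 (interval -0.35 to 0.10, limma adjusted p = 0.727, n = 2 arrays per group). LRRC52, on 1556484_at, read 4.69 and 5.09 in control and 4.82 and 4.752 in knockout, a difference of -0.10 (interval -0.51 to 0.31). Its value on control replicate 2 was the nearest of any dim member to the background 95th percentile of that array, 5.24. LRRC38 and LRRC52 both lie on chromosome 1 and LRRC55 on chromosome 11.

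**Figure D2:**
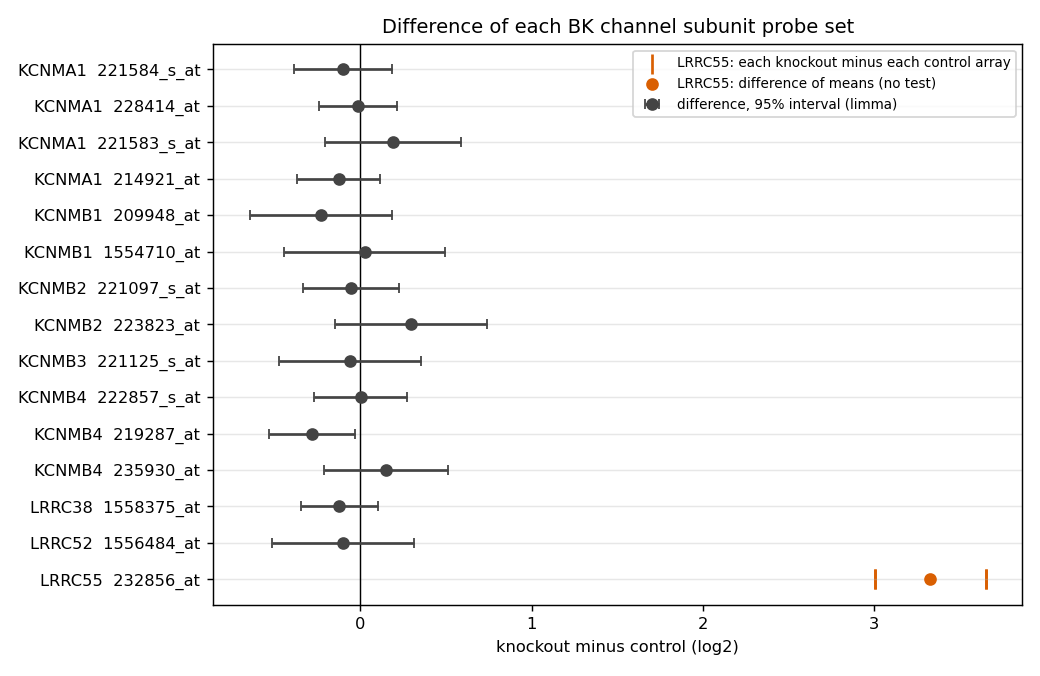
Knockout minus control (log2) of each member probe set, with 95% limma intervals for the 14 probe sets other than LRRC55, and for LRRC55 the difference of means (3.33) with the differences between single arrays (3.004 and 3.65) as ticks. The 14 intervals lay between -0.64 and 0.74, and 13 of them held 0.

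Whether genes near LRRC55 differed as well was examined in the 10 measured genes on each side of it. They were not all close. On one side they reached FNBP4, 9414612 bases away, and only OR5AK4P lay nearer than OR5J2, at 1004397 bases. On the other side they reached TIMM10, 336747 bases away. None of the 20 was called (limma, 1 probe set a gene, lowest adjusted p = 0.471), where 0.475% of all genes were. At an unadjusted p under 0.05 there were 0, where 11.9% of all genes were. With eBayes set to trend and robust 0 of the 20 were called, where 835 of 19775 genes were. The differences of the 20 neighbours ran from -0.21 to 0.20, 10 positive and 10 negative. The nearest on one side, the olfactory receptor pseudogene OR5AK4P, lies 143493 bases away and gave -0.16. The nearest on the other, APLNR, the receptor of the peptide apelin, lies 41874 bases away and gave -0.15. Both were dim, with control means of 3.83 and 4.47. The neighbours above background on every array were 5, of which FNBP4 and NUP160 lie 9414612 and 9333409 bases away. The rest were TIMM10, SSRP1, a subunit of the histone chaperone FACT, which read 10.8 in both groups, and TNKS1BP1, which gave 0.20. Several of the dimmer neighbours are olfactory receptor genes, some of which also belong to the background probe sets.

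**Figure D3:**
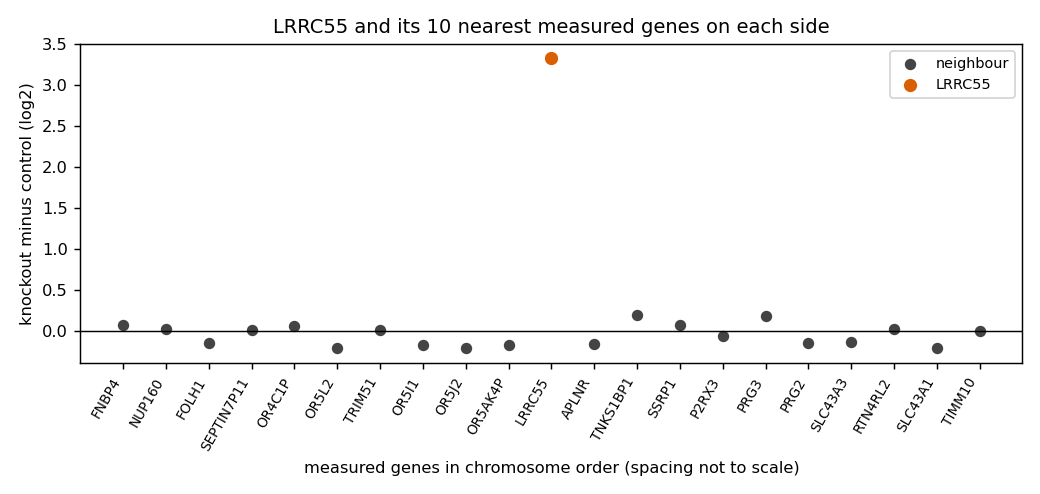
Knockout minus control (log2) of LRRC55 and its 10 nearest measured genes on each side in chromosome order. Spacing is not to scale, and the outermost genes lie 9414612 (FNBP4) and 336747 (TIMM10) bases from LRRC55. The 20 neighbours lay between -0.21 and 0.20 and LRRC55 at 3.33.

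The genes whose pattern over the 4 arrays was most like that of LRRC55 were found by the distance between values centred on each gene's own mean. They were NHSL2 (distance 0.24), LY75 (0.73), PAGE1 (0.80), CCND2 (0.92) and ABCA17P (0.96), all in log2 units. NHSL2 shared the order of the control arrays, with 3.40 and 3.92 in control and 6.74 and 6.82 in knockout. LY75, an endocytic receptor, read 4.70 and 4.46 in control and 7.58 and 7.51 in knockout. Over 4 arrays in 2 groups this likeness mostly restates the size of the difference, so it is a description. A further probe set of NHSL2 gave -0.13, and those of CCND2, the cyclin D2 gene, ran from 0.05 to 3.39.

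Genes around the channel were counted in 6 lists covering 187 genes, of which 171 were measured, each by its brightest probe set. Over all 6 lists, 0 genes rose and 2 fell (1.17%, where 0.475% of all genes were called), and the median difference was -0.0026 against -0.0091 over all genes. At an unadjusted p under 0.05 there were 24 (14.04%), as were 11.9% of all genes. Trend and robust eBayes called 835 of 19775 genes, the share to read beside its counts in the lists below. The 2 that fell were KCNK9 and AMIGO2.

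Potassium channels outside the BK family gave 1 call. KCNK9, a two-pore leak channel, read 7.19 and 7.07 in control and 6.26 and 6.27 in knockout, a difference of -0.86 (SE 0.081, limma adjusted p = 0.04996, n = 2 arrays per group). Its dimmer probe set gave -0.17, and in the fit of all probe sets KCNK9 did not pass (adjusted p = 0.109, limma). It was the 1 called of 29 inward rectifier and two-pore channels, whose median was -0.02; KCNJ13 was next by p, at -0.56 on dim values and -0.06 on its other probe set. KCNN4, the intermediate-conductance calcium-activated channel of epithelium and lymphocytes, was bright, with 10.25 and 10.34 in control and 10.76 and 10.81 in knockout. Its groups did not overlap and its difference was 0.49, but it was not called (limma adjusted p = 0.123, n = 2 arrays per group). The other 5 measured calcium- or sodium-activated channels ran from -0.28 (KCNN1) to 0.07, and 0 of 6 were called (limma). KCNN4 was the 1 with an unadjusted p under 0.05, and the 1 called with eBayes set to trend and robust.

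Of 49 voltage-gated channels and auxiliary subunits 0 were called (limma). An unadjusted p under 0.05 was found in 6, and eBayes set to trend and robust called 1. The groups were apart in 12 of the 49, where those of 43.3% of all genes were, and the median was -0.0090. KCNS3, an electrically silent subunit that modifies KCNB channels, had the largest difference. It read 6.67 and 6.47 in control and 7.31 and 7.39 in knockout, which is 0.78 (SE 0.10, limma adjusted p = 0.0863, n = 2 arrays per group), and it passed after quantile (adjusted p = 0.0426, limma) and cyclic loess (adjusted p = 0.0381, limma) normalization. KCNQ1, the channel of gastric acid secretion and cardiac repolarisation, gave 0.32 and 0.08 on its 2 probe sets without passing.

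Calcium channels, which supply the calcium that opens the BK channel, held 0 called genes of 35 (limma; 4 at an unadjusted p under 0.05, 1 with trend and robust), with a median of -0.02. CACNA2D1, an auxiliary subunit of voltage-gated calcium channels, read 4.19 and 3.97 in control and 4.77 and 5.19 in knockout, so it stood above background on 1 array only. Its difference of 0.90 did not pass (adjusted p = 0.170, limma), and its second probe set gave 0.03. TRPC1, a receptor- and store-linked cation channel subunit, gave 0.54, 0.62 and 0.69 on its 3 probe sets, each with groups apart and none passing (limma). Of 11 genes known to regulate BK channels 0 were called (limma), with a median of -0.01. An unadjusted p under 0.05 was found in 4 of the 11, where 11.9% of all genes had one. Trend and robust eBayes called 1, HMOX2, where it called 835 of 19775 genes. HMOX2 lay above background on every array and gave -0.27. PRKACB, a catalytic subunit of protein kinase A, and PRKG2, a cGMP-dependent kinase, gave -0.71 and -0.33 on probe sets below background. The other 2 probe sets of PRKACB, dimmer still, gave -0.30 and 0.18, the latter with groups apart in the opposite direction.

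Other membrane proteins with extracellular leucine-rich repeats, the structural relatives of the gamma subunits, held 1 called gene of 41 and a median of 0.04. AMIGO2, an adhesion protein of that class, read 10.19 and 10.18 in control and 9.04 and 9.11 in knockout, a fall of 1.12 on the log2 scale (SE 0.075, limma adjusted p = 0.0236, n = 2 arrays per group). With all probe sets tested its adjusted p was 0.0560 (limma). LRIG1, a negative regulator of ERBB receptors, gave 0.83 on its brightest probe set (adjusted p = 0.0840, limma) and -0.29 to -0.44 on its other 3. With any 1 array left out a group holds 1 array, so that setting cannot tell whether the AMIGO2 and KCNK9 calls hold.

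**Figure D4:**
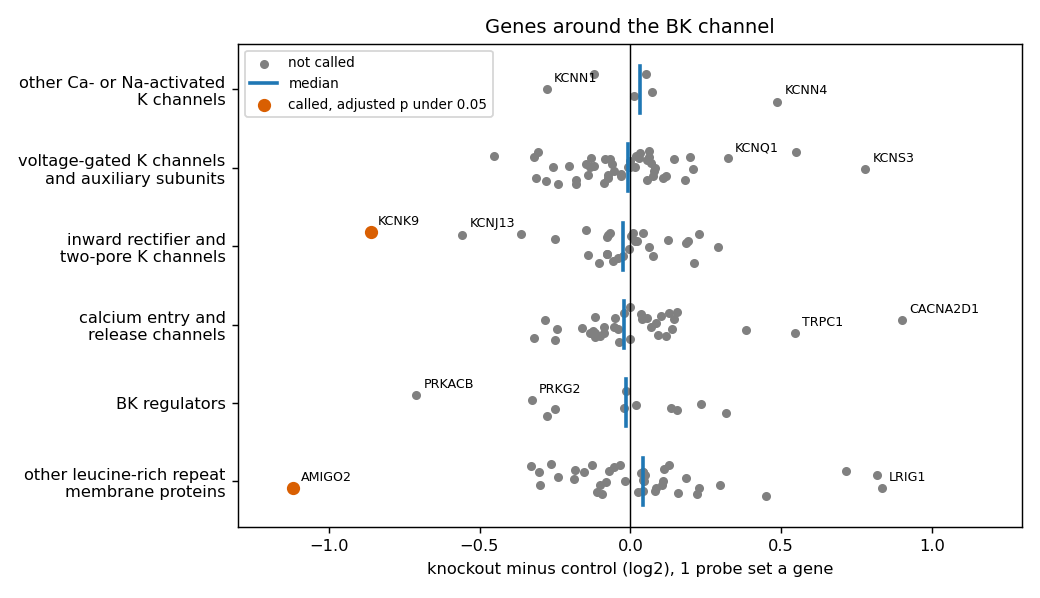
Knockout minus control (log2) of the measured genes of the 6 lists, 1 point a gene, with each list's median as a blue bar and the 2 called genes in orange. The medians lay between -0.02 and 0.04; KCNK9 (-0.86) and AMIGO2 (-1.12) were called, and the 2 genes with the smallest p of each list are named.

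Markers of smooth muscle, neurons, leukocytes, fibroblasts and epithelium were counted beside these results. Of 7 smooth muscle markers 1, ACTA2, lay above background on all 4 arrays, and their summed linear level was 195.9 to 237.4 in control and 203.7 to 213.1 in knockout. Of 8 neuronal markers 3 lay above background on all 4 arrays, with summed levels of 241.3 to 247.9 in control and 244.4 to 246.2 in knockout. Of 5 measured leukocyte and 7 fibroblast markers 1 each lay above background on all 4 arrays. None of the smooth muscle, neuronal, leukocyte or fibroblast markers was called (limma, lowest adjusted p = 0.242). Trend and robust eBayes called 0 of them, where it called 835 of 19775 genes. In the smooth muscle, leukocyte and fibroblast lists 1 each had an unadjusted p under 0.05, where 11.9% of all genes had one. The summed levels of the leukocyte list (105.1 to 113.6 in control, 102.8 to 112.5 in knockout) and the fibroblast list (246.7 to 308.5 and 250.6 to 266.1) also overlapped between the groups. Those of the 8 epithelial markers did not overlap, with 30560 to 32230 in control and 33450 to 33740 in knockout. That linear sum rests mostly on its brightest genes, KRT18 and KRT8, which gave differences of 0.11 and 0.19. Of the 8 epithelial markers, 6 differences were positive and 2 negative, with a median of 0.07. The groups were apart in 5 of the 8, where those of 43.3% of all genes were. None was called (limma). Trend and robust eBayes called 2 of the 8, where it called 835 of 19775 genes. An unadjusted p under 0.05 was found in 1, where 11.9% of all genes had one. The 1 was CDH1, the E-cadherin gene, which read 10.53 and 10.48 in control and 10.14 and 10.16 in knockout, a difference of -0.35 (limma adjusted p = 0.187, n = 2 arrays per group). The part of these markers in the difference of LRRC55 was not tested.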

How the data were processed

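RNA was amplified with a 3′ in vitro transcription kit and measured on single-colour Affymetrix arrays, per the labels' protocols. The values the authors deposited are log2 expression per probe set. The submitters' processing notes name RMA and affy, without versions or settings. RMA brings the arrays to a like distribution, which removes shifts common to most transcripts and compresses differences between low values. There is no read depth, and precision is limited by the number of arrays.

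Probe sets were named from the platform annotation (1 symbol for 41091, several for 1801, none for 11721), checked by gene ID against RefSeq's GRCh38.p14 gene table (41037 matched, 0 symbols changed). Knockout and control were compared with limma 3.58.1 in R 4.3.3 (lmFit, eBayes, group as the only term, two-sided, Benjamini-Hochberg over all features). Members were tested over all 54613 probe sets, and lists and neighbours over 19775 genes, each by its brightest probe set on average. Intervals are 95% and SE is moderated. An exact permutation test could give no p below 0.333 here. The steps were tested on simulated data. The members, lists and rules were chosen with earlier results of these data known. Named were all member probe sets, PRMT6, called genes and the 2 smallest p of each list, nearest neighbours and the 5 most alike genes; members of lists and markers named beyond that serve as examples chosen after their values were seen. Alternatives were quantile and cyclic loess normalization, a filter on low means, trend and robust eBayes, the replicate number as a block, averaging the probe sets of each gene, and leaving out each array.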

Additional observations from a re-analysis of the deposited data

How the results depend on the processing

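The LRRC55 difference kept its direction under every alternative run: 3.31 with quantile and 3.30 with cyclic loess normalization, and 3.004 to 3.65 when an array was left out. It had no second probe set to compare. Of the 14 other member probe sets, 0 were called in any alternative. Signs of small differences turned in 7 of them. After quantile and cyclic loess normalization 228414_at gave 0.0142 and 0.0189, and 222857_s_at gave -0.0371 and -0.0334. With an array left out the ranges were -0.0459 to 0.0194 (228414_at), -0.200 to 0.257 (1554710_at), -0.145 to 0.0369 (221097_s_at), -0.247 to 0.127 (221125_s_at), -0.0760 to 0.0834 (222857_s_at), -0.0149 to 0.313 (235930_at) and -0.299 to 0.0981 (1556484_at).

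KCNK9 was not called (0 of 29) under the replicate block or with the probe sets of each gene averaged, nor AMIGO2 (0 of 41) under the replicate block, and with an array left out both lists held 0 calls. KCNS3 made 1 call of 49 after quantile and cyclic loess normalization, with the filter on low means and with trend and robust eBayes. KCNN4 made 1 call of its list under the last 2. Trend and robust eBayes also called 1 calcium channel gene (CACNA2D1), 1 BK regulator (HMOX2) and 2 leucine-rich repeat genes (AMIGO2 and LRIG1). Over all features this setting called 883 probe sets and 835 genes, against 81 and 94; the filter called 167 and 527, quantile normalization 107 and 195, cyclic loess 123 and 231, and averaging probe sets 138 genes. Leaving out an array, or the replicate block, called 0 probe sets and 0 genes (main setting at an unadjusted p under 0.05: 4726 and 2363). The replicate numbers were not taken to pair the arrays: same-numbered arrays deviated together at r = 0.0942 over all probe sets. The cause of these changes was not tested. PRMT6 passed with the filter (adjusted p = 0.0420, limma) and with trend and robust eBayes (0.00736). Members dimmer than the median of all probe sets have no value under the filter, and values near background carry little information on the transcript.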
